A study of Mus musculus with 12 samples.

Results

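Collagens, laminins and integrins form the matrix on which cells sit and the receptors by which they hold it. The table of gene levels was searched by gene name for collagen chains (Col with a number, a and a number), laminin chains (Lama, Lamb or Lamc with a number) and integrin chains (Itga or Itgb with a suffix), leaving out the integrin-binding proteins Itgb1bp1, Itgb1bp2 and Itgb3bp. This gave 81 genes of 29937 in all: 43 collagen, 10 laminin and 28 integrin names. Itgbl1, an integrin beta-like secreted protein and not a receptor chain, is among the 28 by its name. Of the 81, 29 reached FPKM 1 in at least 3 of 12 libraries and were tested: 10 collagens, 7 laminins and 12 integrins. FPKM is the fragment count scaled to transcript length and sequencing depth. The other 52 stayed below FPKM 1 in every library.

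The data are 12 RNA libraries of 4T1, an adherent mouse mammary carcinoma cell line with the genotype given as WT, in 4 groups of 3. The groups are titled PBS, APAP, Oxa and OAP2, and the 3 drug groups carry the same words as their treatment label. The PBS group, whose treatment field says DMSO, is the control, and its columns in the deposited table are called CON. The design text speaks of cell derived xenografts where the labels speak of a cell line, and no dose or time is stated.

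Most collagens are secreted as triple helices of 3 alpha chains, laminins are trimers of an alpha, a beta and a gamma chain, and integrins are pairs of an alpha and a beta chain that span the membrane. Collagen IV and laminins build the basement membrane under epithelial cells, collagen VII anchors it to the stroma below, and fibrillar collagens such as collagen I are mostly made by fibroblasts. In epithelial cells the pairs of Itgb1 with Itga2, Itga3 or Itga6 bind collagens or laminins, and the pair of Itga6 with Itgb4 holds the hemidesmosome to a laminin with the Lama3 and Lamb3 chains.

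The libraries held between 64071751 and 71500487 counts. Epithelial markers had a mean log2(FPKM + 1) between 6.98 and 7.35 in all 12 libraries. PBS 2 stood apart in its markers: the red blood cell list reached 4.18 there and at most 0.09 elsewhere, and the neutrophil list 2.58 against at most 0.13. The fibroblast list ranged from 0.11 to 0.39, highest in PBS 2, where Lum was at FPKM 0.51 and Dcn at 0.16, against at most 0.01 for either elsewhere. Postn was also highest there (1.15 against at most 0.48), Pdgfrb was at most at 0.02 in any library, and Pdgfra went the other way, at 0.61 in PBS 2 and OAP2 3 and between 0.96 and 1.52 in the other libraries. The endothelial list stayed at or below 0.03. The part of the blood cell transcripts in the values of PBS 2 was not tested.

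OAP2 3 stood apart in the members themselves. All 29 tested genes were at their lowest of the 3 OAP2 libraries in OAP2 3, where this held for 43.7% of all genes tested. Their median log2 CPM (counts scaled to library size) lay 0.77 below the mean of OAP2 1 and OAP2 2 (a departure of -0.77), against -0.03 over all genes. The tested members are long, GC-rich transcripts: 22 lie in the longest of 4 equal classes of the genes tested and 17 in the class with the highest GC content. Over those classes of all genes, the median departure of OAP2 3 was -0.16 and -0.10, and over the shortest class it was 0.24. The part of transcript length or RNA quality in the low values of OAP2 3 was not tested. In PBS 2, 12 of the 29 departed over 1.5-fold from the mean of the other PBS libraries, where 23.1% of all genes did. Col11a2 (-1.62), Itgb7 (-1.58), Col20a1 (-1.41) and Col5a1 (-1.04) were lowest there, and Itgb6 (1.15), Itga2 (0.64), Lamb3 (0.63), Col7a1 (0.62) and Lama3 (0.53) were highest. Counts of called members, and the fold changes of called members, are given below with and without these libraries. OAP2 3 was set apart by the tested genes themselves, so leaving it out raises their level in OAP2. Without OAP2 3 alone, the members with a positive log2 fold change went from 14 to 21 in OAP2 against PBS. They went from 11 to 16 in OAP2 against Oxa and from 10 to 22 in OAP2 against APAP. Counts of groups that do not overlap are over all 12 libraries, and the shares of all genes beside them are for either direction. In a bulk library, fewer cells of a type and less RNA per cell cannot be told apart.

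**Figure D1:**
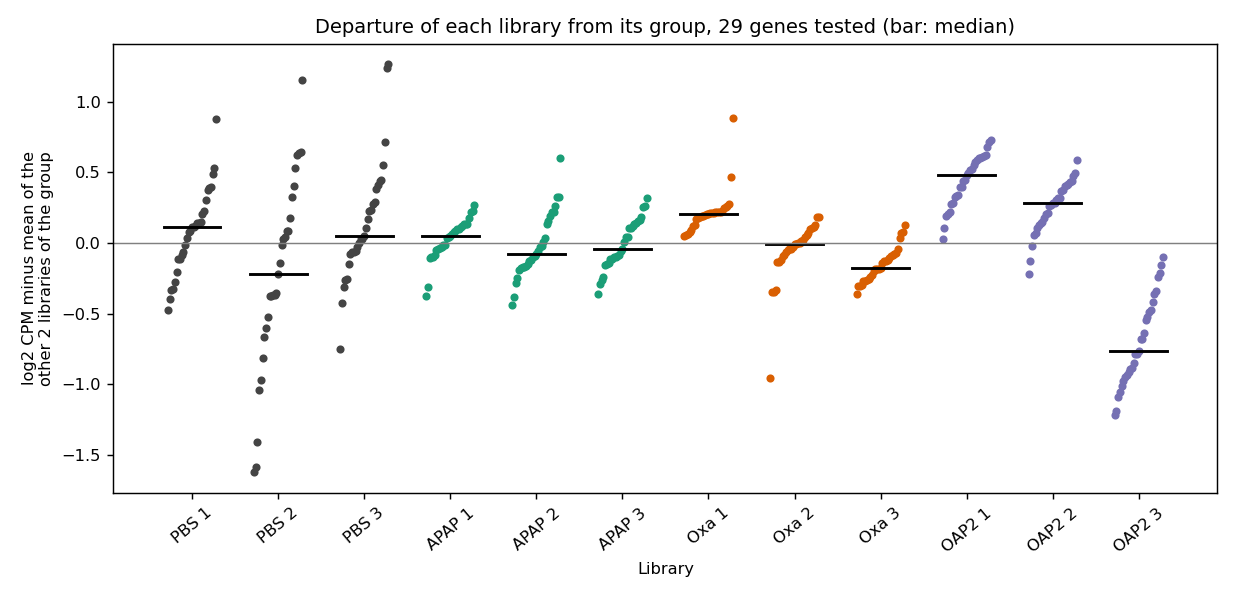
Departure of each of the 29 tested genes in each library (y axis, log2 CPM minus the mean of the other 2 libraries of the same group) for the 12 libraries (x axis); the bar is the median. All points of OAP2 3 lie below 0, with a median of -0.77, and PBS 2 spreads from -1.62 to 1.15.

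The most abundant members were integrin chains. Itgb1, the beta chain shared by most matrix-binding integrins, had the highest mean, at FPKM 322.6 ± 24.9 (SD, n = 3) in PBS, 284 ± 27.2 in APAP, 291 ± 16.4 in Oxa and 309 ± 32.2 in OAP2. Itga3, which pairs with it to bind laminins, was next, at 270.4 ± 15.4, 284 ± 14.6, 260.4 ± 28.2 and 247 ± 51.8 in the same order. These levels of Itgb1 and Itga3 overlapped between groups, and edgeR called neither gene in any comparison. For OAP2 against PBS the 95% interval of the log2 fold change ran from -0.28 to 0.18 for Itgb1 and from -0.42 to 0.18 for Itga3.

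Laminin chains followed. Over the 12 libraries Lamb1 ranged from FPKM 91.8 to 180.04, Lama5 from 69.9 to 143 and Lamc1 from 41.1 to 80.5. The lowest Lamb1 was in PBS 2, and the lowest Lama5 and Lamc1 were in OAP2 3. Lama5, Lamb1 and Lamc1 encode the chains of the laminin common in epithelial basement membranes. The first of the collagens were Col4a2, with a mean of 64.1 over the libraries, and Col4a1, with 58.9, the main chains of the basement membrane network, then Col18a1 with 33.2, whose product sits in basement membranes and carries endostatin at its end. Among the integrins, Itgb4 had a mean of 30.1 and Itgb5, which pairs with Itgav to bind vitronectin, a mean of 28.2.

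**Figure D2:**
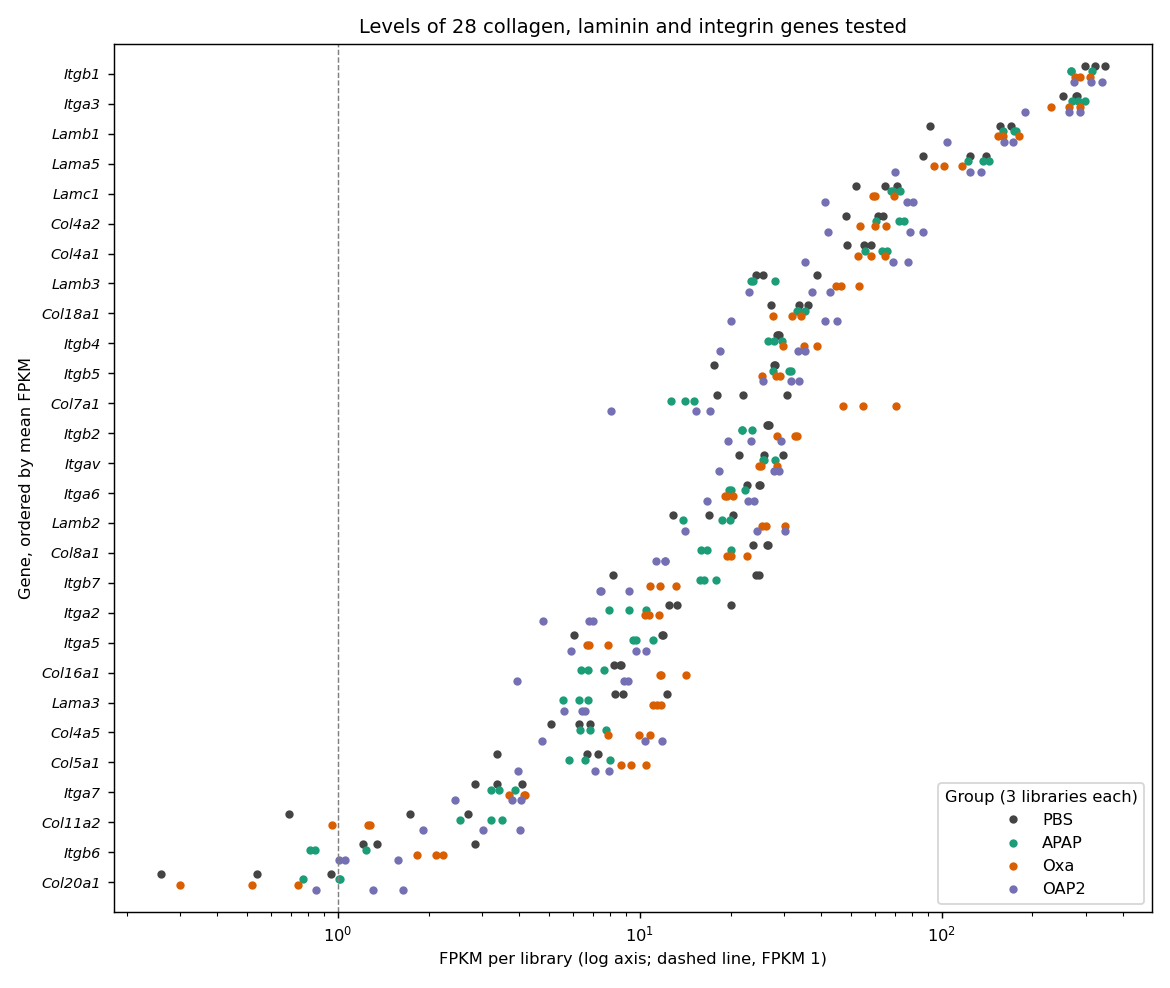
FPKM (x axis, log scale) of 28 of the 29 tested genes (y axis, by mean level) in each library, coloured by group. Itgb1 and Itga3 stand highest, between 188.73 and 348.33, and the Oxa libraries stand apart in Col7a1, between 47.02 and 70.69.

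Of the 43 collagens 10 passed the level rule: 3 of 6 chains of collagen IV (Col4a1, Col4a2 and Col4a5), Col7a1, Col8a1, Col18a1, the fibrillar Col5a1 and Col11a2, and Col16a1 and Col20a1, which associate with fibrils. All 6 names of beaded collagen VI and the 4 transmembrane collagens failed the level rule, as did 9 of 11 fibrillar collagens. Col1a1, the chain of the major fibrillar collagen, picked here with Col1a2 and Col3a1 after their values were seen, lay between FPKM 0.08 and 0.25 in 11 libraries and at 0.56 in PBS 2. Col1a2 reached 0.46 in PBS 2 and at most 0.02 elsewhere, and Col3a1 0.25 against at most 0.01. So these 3 picked chains were highest in the library with the blood cell transcripts, still below FPKM 1. Not all collagens went this way. Col6a1 was at 0.22 in PBS 2 and highest in Oxa 1, at 0.57, and Col5a1 was at its lowest in PBS 2, at 3.38. At the edge of the level rule, Itgb6 (mean FPKM 1.51) and Col20a1 (0.826) passed, Col20a1 through 2 OAP2 and 2 APAP libraries alone, and Itga10 (0.444) and Col9a3 (0.405) did not.

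Leukocyte integrins were split by chain. Itgb2, the beta chain of the leukocyte integrins, stood at FPKM 26.6 ± 0.232 in PBS, 22.4 ± 0.945 in APAP, 31.4 ± 2.55 in Oxa and 24.2 ± 4.99 in OAP2, and at 26.36 and 26.54 in PBS 1 and PBS 3, where the neutrophil list was at or below 0.05. The macrophage list (mean log2(FPKM + 1)) was highest in PBS 1, at 0.898 with Adgre1 at FPKM 1.51, and was 0.549 in PBS 3 with Adgre1 at 0. Their part in the level of Itgb2 was not tested. The alpha partners of Itgb2, picked after their values were seen, were low, with Itgal, Itgam and Itgax highest in PBS 1: Itgal reached at most 0.29, Itgam 0.49, Itgax 0.05 and Itgad 0.04. Itgb7, which pairs with Itga4 or Itgae in lymphocytes, was also expressed, while Itga4 reached at most 0.08 and Itgae 0.21. No deposited value bears on whether either beta chain reaches the cell surface.

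Col4a1 and Col4a2 lie head to head on chromosome 8, and their annotated starts overlap. The 22 bases between both starts, inclusive, are in capitals in this stretch of the plus strand (RefSeq, GRCm38.p6), shown because the levels of the pair moved closely together.
Col4a1 and Col4a2, chr8:11312801-11312830: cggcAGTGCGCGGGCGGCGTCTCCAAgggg
Col4a2 starts at 11312805 on the plus strand and Col4a1 at 11312826 on the minus strand. The ratio of Col4a2 to Col4a1 in FPKM stayed between 0.989, in PBS 2, and 1.20, in OAP2 3, over the 12 libraries, while Col4a1 itself ranged from 35.2 to 77.2. By group the ratio was 1.06 ± 0.0652 in PBS, 1.12 ± 0.0251 in APAP, 1.02 ± 0.0083 in Oxa and 1.15 ± 0.0366 in OAP2 (SD, n = 3), and the 3 Oxa values lay below the 3 OAP2 values.

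For some members called in more than 1 comparison, described below, the 250 bases before the start are shown. These are Col7a1, Col8a1 and Itga2, picked by name, and Lama3, called in more than 1 comparison too, is not shown. The bases are from RefSeq on GRCm38.p6, 5′ to 3′ on the strand of the gene. Capitals mark matches to CCAAT, to the GC box GGGCGG or to the AP-1 motif TGANTCA, on either strand.
Col7a1, chr9:108953336-108953585, plus strand: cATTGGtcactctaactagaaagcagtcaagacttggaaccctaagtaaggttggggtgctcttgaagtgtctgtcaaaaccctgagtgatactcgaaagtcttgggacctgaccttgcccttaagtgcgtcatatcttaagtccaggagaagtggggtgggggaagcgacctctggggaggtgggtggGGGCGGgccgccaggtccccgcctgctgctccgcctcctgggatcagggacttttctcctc
Col8a1, chr16:57754738-57754987, minus strand: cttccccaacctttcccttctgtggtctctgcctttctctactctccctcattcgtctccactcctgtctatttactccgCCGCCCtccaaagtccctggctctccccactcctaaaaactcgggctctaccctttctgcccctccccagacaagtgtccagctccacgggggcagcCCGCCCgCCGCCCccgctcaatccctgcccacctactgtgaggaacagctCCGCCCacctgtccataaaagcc
Itga2, chr13:114932101-114932350, minus strand: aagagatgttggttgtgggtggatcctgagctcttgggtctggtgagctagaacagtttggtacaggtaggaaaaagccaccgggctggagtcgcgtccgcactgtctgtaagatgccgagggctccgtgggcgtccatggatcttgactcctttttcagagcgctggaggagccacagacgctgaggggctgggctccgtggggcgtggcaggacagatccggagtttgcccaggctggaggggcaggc
The Col7a1 window held 1 CCAAT and 1 GC box match, the Col8a1 window 4 GC box matches, and the Itga2 window none of the 3 motifs. No matches overlapped in these windows. Of 29 tested members, 22 had windows in the table, 26 in all. The motifs were searched in the 250 bases before each start. Of all 32851 such stretches, 33.8% held CCAAT, 32.7% a GC box and 6.75% TGANTCA, against 8, 15 and 0 of the 26 windows of members. A match describes the letters and is not a binding site.

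OAP2 against PBS asked which of these genes differed in OAP2-treated cells. Among the 29, edgeR called 4 lower and 0 higher at an adjusted p below 0.05, and 25 were not called. Of all 12036 genes 5.25% were called, 2.14% higher and 3.11% lower. An unadjusted p below 0.05 was reached by 9 members, Col20a1 among them, and by 20.8% of all genes. DESeq2 called 6 members, the same 4 with Col7a1 lower and Col20a1 higher, and 10.7% of all genes. The call of Col20a1 is partly set by the level rule, which it passed only through OAP2 and APAP libraries. The 4 were 1 collagen (Col8a1), 1 laminin (Lama3) and 2 integrins (Itga2 and Itgb7). The median log2 fold change was -0.02 over the members and -0.000710 over all genes. In FPKM the groups did not overlap for 4 members, Col8a1, Itga2, Lama3 and Col7a1, all lower in OAP2, against 18.7% of all genes.

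Col8a1, a short chain collagen that forms hexagonal networks in vessel and corneal basement membranes (chromosome 16, 57624258 to 57754737), stood at FPKM 23.69, 26.47 and 26.56 in the PBS libraries 1 to 3 and at 12.15, 12.16 and 11.34 in the OAP2 libraries. APAP gave 16.71, 20.10 and 15.92, and Oxa 22.63, 20.13 and 19.49. Every PBS value lay above every value of the other groups, and every OAP2 value below them. The fall in OAP2 was to 0.469 of PBS (log2 fold change -1.09 ± 0.11 SE, 95% interval -1.32 to -0.86, edgeR adjusted p = 0.000173). This was the smallest p among the members, and the library departures of PBS 2 (0.08) and OAP2 3 (-0.10) were small for this gene. Without both libraries it was -1.03, still called.

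Itga2, the alpha chain of a collagen receptor (chromosome 13, 114833081 to 114932100), stood at 12.51, 20.07 and 13.29 in PBS, 9.23, 10.48 and 7.89 in APAP, 11.59, 10.40 and 10.77 in Oxa and 6.79, 7.02 and 4.78 in OAP2. PBS 2 was the highest of all and OAP2 3 the lowest, and the OAP2 values lay below those of each other group. The log2 fold change was -1.29 ± 0.19 (edgeR adjusted p = 0.00214), and -0.89 without PBS 2 and OAP2 3 (adjusted p = 0.000163). With the 6 libraries of this comparison alone, Itga2 was not called (adjusted p = 0.0623).

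Lama3, the alpha chain of the hemidesmosome laminin (chromosome 18, 12333819 to 12583013), stood at 8.30, 12.34 and 8.83 in PBS, 6.28, 6.76 and 5.58 in APAP, 11.77, 11.08 and 11.46 in Oxa and 6.57, 6.45 and 5.61 in OAP2. The APAP and OAP2 values overlapped each other and lay below PBS. For OAP2 the log2 fold change was -0.65 ± 0.14 (edgeR adjusted p = 0.0166). Without PBS 2 and OAP2 3 it was -0.38 (adjusted p = 0.0102), a smaller change with a smaller spread. It was not called without OAP2 1, with the 6 libraries alone or with no filter on low values.

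Itgb7 (chromosome 15, 102215995 to 102231944) stood at 24.88, 8.15 and 24.26 in PBS, 15.80, 16.29 and 17.95 in APAP, 13.23, 10.84 and 11.64 in Oxa and 9.20, 7.45 and 7.42 in OAP2. PBS 2 lay within the OAP2 range, so the groups overlapped. The log2 fold change was -1.24 ± 0.29 (edgeR adjusted p = 0.0275) over all libraries and -1.55 ± 0.11 (adjusted p = 1.32e-06) without PBS 2 and OAP2 3. PBS 2 was the PBS library at odds with the fall, so the smaller SE and p are partly set by leaving it out. The call ended without PBS 1, PBS 3, OAP2 1, OAP2 2 or OAP2 3 in turn, with limma, with the 6 libraries alone and with no filter on low values.

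**Figure D3:**
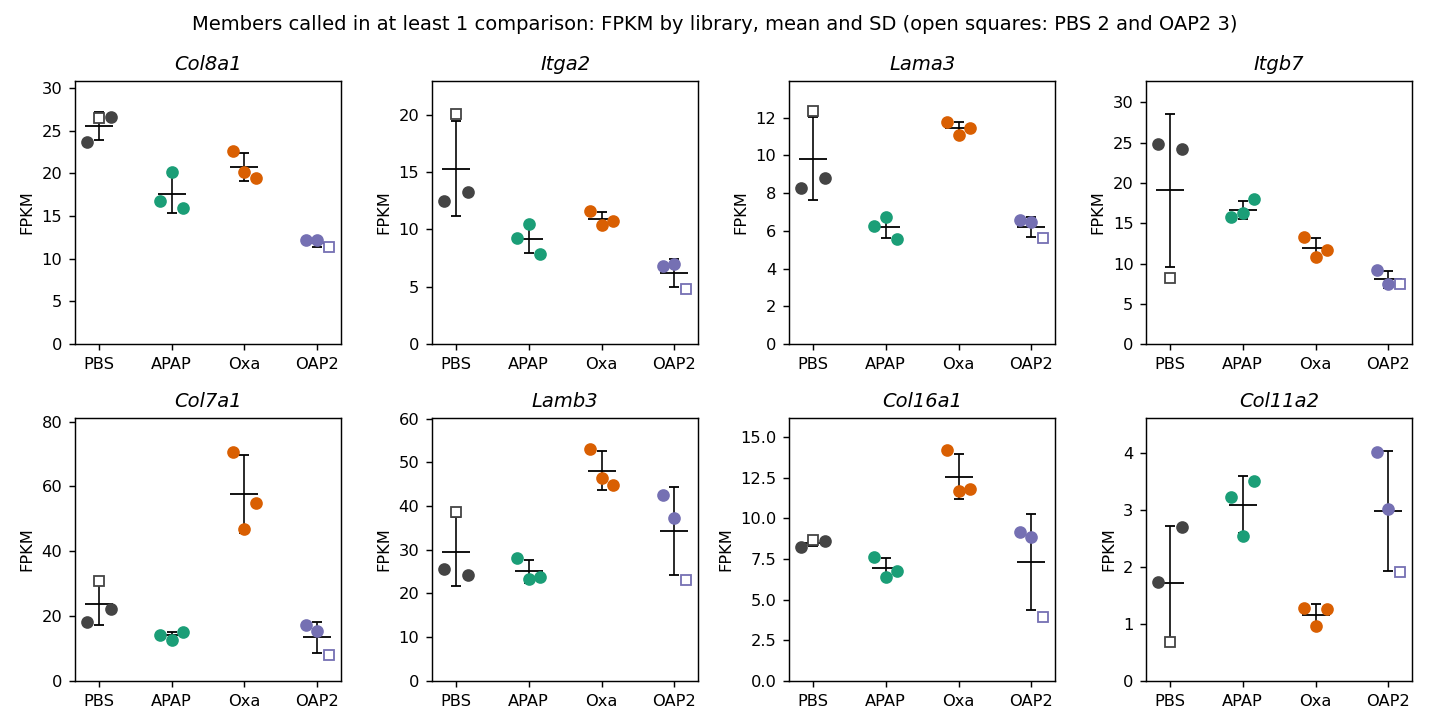
FPKM by library (y axis, from 0) in the 4 groups (x axis) for the 8 genes called in at least 1 comparison; horizontal bars are means with SD over 3 libraries, and open squares are PBS 2 and OAP2 3. Col8a1 falls from between 23.69 and 26.56 in PBS to between 11.34 and 12.16 in OAP2, and Col7a1 is highest in Oxa.

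Leaving out PBS 2 and OAP2 3 gave a longer list, with 2 libraries left in each of these groups. Then 13 members were called, 9 higher and 4 lower in OAP2, where 23.6% of all genes were called, 12.5% higher and 11.1% lower. The same 4 fell. Those that rose were Col4a1 (log2 fold change 0.38 ± 0.10), Col4a2 (0.42 ± 0.11) and Col4a5 (0.78 ± 0.12) of the basement membrane network, Col18a1 (0.32 ± 0.10), Lamb2 (0.56 ± 0.14), Lamb3 (0.69 ± 0.11), Itga7 (0.35 ± 0.10), Col11a2 (0.67 ± 0.20) and Col20a1 (1.00 ± 0.34). Col20a1 had entered the test only through OAP2 and APAP libraries, so its place in this count is partly set by the level rule. In edgeR none of these 9 was called over all 12 libraries, where DESeq2 called Col20a1. Col4a1 had FPKM 77.24, 69.26 and 35.19 in OAP2 1 to 3 against 55.53, 48.74 and 58.30 in PBS 1 to 3. So OAP2 1 and OAP2 2 lay above all PBS libraries, and OAP2 3 below them. OAP2 3 was left out for the low values of these same genes, so the higher calls are partly set by that choice. Without OAP2 3 alone, 7 were called, 4 higher and 3 lower, where 7.69% of all genes were, 3.62% higher and 4.07% lower. Without PBS 2 alone 4 were called, all lower, where 16.4% of all genes were, 8.77% higher and 7.65% lower.

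**Figure D4:**
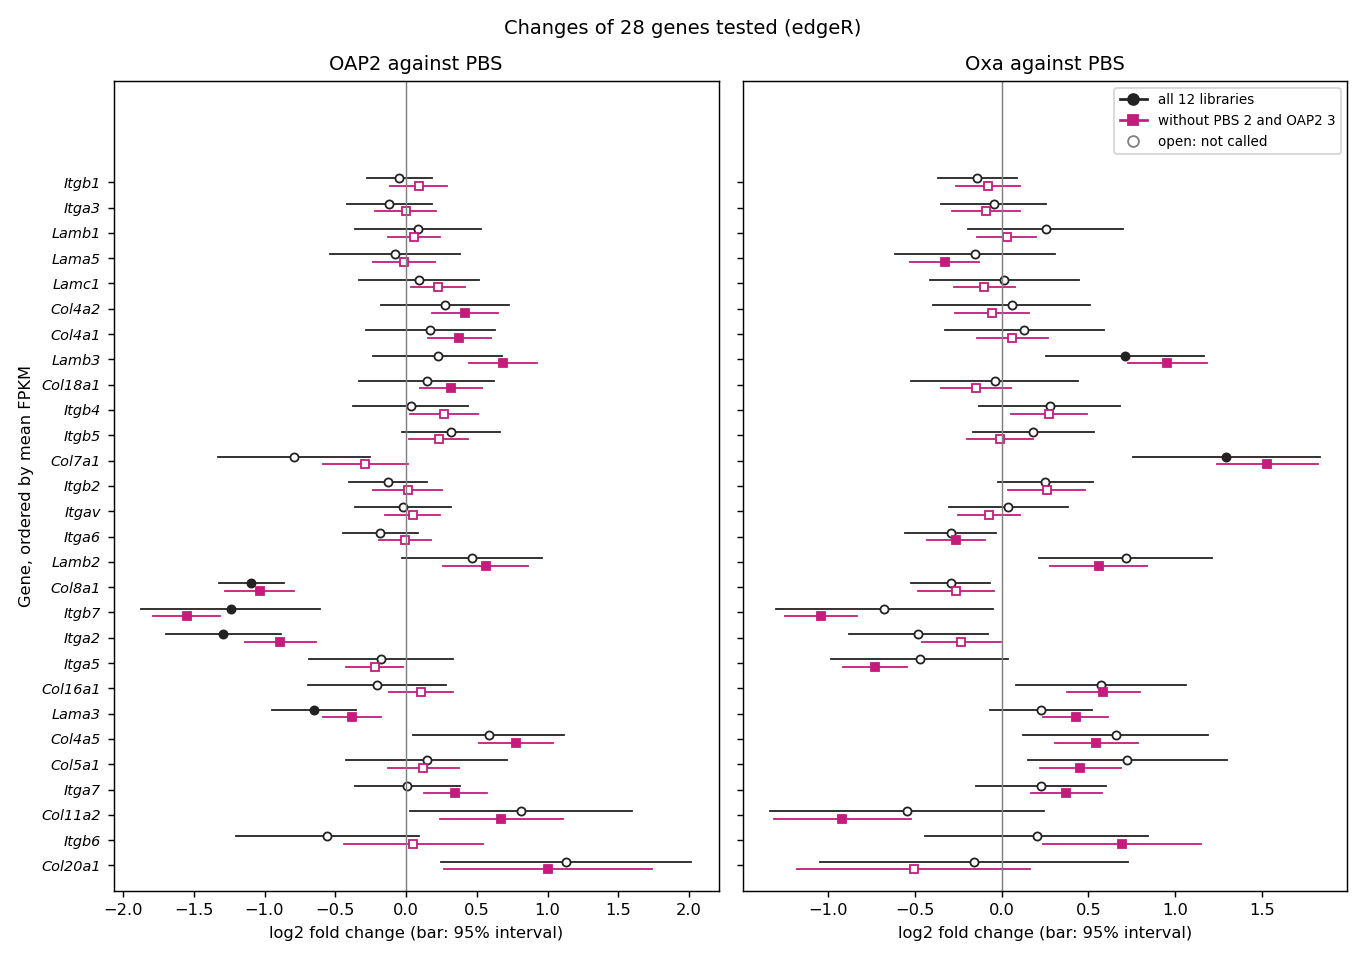
Log2 fold change (x axis) with its 95% interval for 28 of the 29 tested genes (y axis) in OAP2 against PBS (left) and Oxa against PBS (right), over all 12 libraries (black circles) and without PBS 2 and OAP2 3 (magenta squares); filled symbols passed an adjusted p of 0.05 in edgeR. The calls rise from 4 to 13 for OAP2, where those of all genes rise from 5.25% to 23.6%. For Oxa they rise from 2 to 14, where those of all genes rise from 10.1% to 35.4%. The libraries left out were chosen after the data were seen.

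Oxa against PBS asked the same of Oxa. Among the 29, edgeR called Col7a1 and Lamb3 higher and none lower, and 27 were not called. Of all genes 10.1% were called, 5.35% higher and 4.76% lower, and 27.1% had an unadjusted p below 0.05, as did 10 members. DESeq2 called 5 members, adding Col4a5, Col5a1 and Lamb2, and 17.1% of all genes. The median log2 fold change was 0.06 over the members and -0.01 over all genes. Groups did not overlap for 11 members, 8 higher and 3 lower in Oxa, against 29.1% of all genes.

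Col7a1 encodes the anchoring fibril collagen (chromosome 9, 108953586 to 108984875). It stood at FPKM 18.09, 30.68 and 22.07 in PBS, 14.18, 12.74 and 15.16 in APAP, 70.69, 47.02 and 54.98 in Oxa and 17.10, 15.40 and 8.03 in OAP2. The lowest Oxa library lay above the highest of the 9 others, which was PBS 2. It was 2.45-fold higher in Oxa than in PBS (log2 fold change 1.29 ± 0.25, 95% interval 0.75 to 1.83, edgeR adjusted p = 0.00808), and without PBS 2 and OAP2 3 the value was 1.53 ± 0.14. In OAP2 it stood at -0.79 ± 0.25 and in APAP at -0.71 ± 0.25 against PBS, neither called in edgeR (adjusted p = 0.0821 and adjusted p = 0.423). DESeq2 called the first (adjusted p = 0.0146). These values of Col7a1 were -0.29 ± 0.14 and -0.47 ± 0.13 without PBS 2 and OAP2 3, neither called in edgeR.

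Lamb3, the beta chain of the hemidesmosome laminin (chromosome 1, 193207699 to 193343878), stood at 25.66, 38.67 and 24.33 in PBS, 28.06, 23.31 and 23.70 in APAP, 53.13, 46.44 and 44.74 in Oxa and 42.60, 37.15 and 23.01 in OAP2. All Oxa values were above all PBS values. The log2 fold change for Oxa was 0.71 ± 0.21 (edgeR adjusted p = 0.0498), and 14 of 21 alternatives did not call it, with adjusted p up to 0.159. Without PBS 2 and OAP2 3 it was 0.95 ± 0.11 (adjusted p = 2.2e-05).

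Without those libraries 14 members were called for Oxa, 9 higher and 5 lower, where 35.4% of all genes were, 18.5% higher and 16.9% lower. Besides Col7a1 and Lamb3 the higher ones were Lama3 (0.43), Lamb2 (0.56), Col4a5 (0.54), Col5a1 (0.45), a minor fibrillar chain, Col16a1 (0.59), which binds to the surface of fibrils, Itga7 (0.37) and Itgb6 (0.69), whose pair with Itgav activates latent TGF-beta. The lower ones were Itgb7 (-1.04), Itga5 (-0.73), the fibronectin receptor chain, Col11a2 (-0.92), Lama5 (-0.33) and Itga6 (-0.26). Leaving out PBS 2 was chosen after the data were seen, and it departed from its group in several of these genes. So these calls, higher and lower, are partly set by that choice. Without PBS 2 alone 7 were called, 4 higher and 3 lower, where 25.5% of all genes were (14.2% higher, 11.2% lower). Without OAP2 3 alone 7 were called, 6 higher and 1 lower, where 14.7% of all genes were (7.22% higher, 7.49% lower).

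APAP against PBS gave 0 called members of 29, where edgeR called 0.0166% of all genes. An unadjusted p below 0.05 was reached by 6 members, where 9.16% of all genes reached it, and DESeq2 called 3, Col8a1, Itga2 and Lama3, all lower in APAP, where it called 0.856% of all genes. The smallest p-values were those of Col8a1 (log2 fold change -0.50 ± 0.11, 95% interval -0.73 to -0.27, adjusted p = 0.202) and Lama3 (-0.62 ± 0.14, interval -0.92 to -0.32, adjusted p = 0.216). In FPKM 8 members had groups that did not overlap, all lower in APAP, against 15.9% of all genes in either direction. The members did not fall as a set: their median log2 fold change was 0.07, with 17 positive and 12 negative, against -0.00411 over all genes. Without PBS 2 and OAP2 3, Itgb7 (-0.52 ± 0.10) and Lama3 (-0.42 ± 0.09) were called lower and Col8a1 stood at -0.47 ± 0.10 (adjusted p = 0.0533), where 0.598% of all genes were called, 0.208% higher and 0.39% lower. Without PBS 2 alone no member was called in edgeR, where 0.0249% of all genes were, all lower. The 3 comparisons with PBS share their control libraries, so their values for a gene are not independent of each other. The same holds for the 3 comparisons of OAP2, which share the OAP2 libraries, OAP2 3 among them. A gene called in more than 1 of them is not called independently.

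OAP2 against Oxa set the drugs side by side, with no PBS library in the contrast. Among the 29, 1 was called higher and 5 lower in OAP2, where 12.9% of all genes were called, 6.02% higher and 6.91% lower. An unadjusted p below 0.05 was reached by 11 members, Col20a1 among them, and by 27.8% of all genes. DESeq2 called 8 members, adding Col20a1 and Itgb2, and 17.9% of all genes. Col20a1 entered the test only through OAP2 and APAP libraries. So this call, and its place among the higher groups that do not overlap, are partly set by the level rule. The members' median was -0.17 against 0.000980 over all genes. Groups did not overlap for 11 members, 2 higher and 9 lower in OAP2, against 36.1% of all genes in either direction. The share of all genes in each direction is not given here, so the split does not set the members apart. Called lower were 3 collagens, 1 laminin and 1 integrin: Col7a1 (log2 fold change -2.08 ± 0.26, 95% interval -2.64 to -1.53, edgeR adjusted p = 0.000439), Col8a1 (-0.80 ± 0.11, 0.000610), Lama3 (-0.88 ± 0.14, 0.00174), Itga2 (-0.81 ± 0.19, 0.0132) and Col16a1 (-0.78 ± 0.23, 0.0401). With PBS 2 and OAP2 3 left out the values were -1.82 ± 0.14 for Col7a1, -0.77 ± 0.11 for Col8a1, -0.81 ± 0.09 for Lama3 and -0.66 ± 0.11 for Itga2, all still called.

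Col16a1 (chromosome 4, 130047840 to 130099283) stood at FPKM 14.20, 11.70 and 11.81 in Oxa and 9.13, 8.88 and 3.94 in OAP2, with PBS between 8.25 and 8.65. OAP2 3 lay apart from the other OAP2 libraries, and without PBS 2 and OAP2 3 the change was -0.48 ± 0.10, still called. Over the other libraries its call ended without PBS 1, any Oxa or any APAP library in turn, with the 6 libraries alone and with no filter on low values. Col11a2, a fibrillar chain best known from cartilage (chromosome 17, 34039437 to 34066685), was the 1 called higher, at 1.28, 0.96 and 1.26 in Oxa and 4.02, 3.02 and 1.92 in OAP2 (1.36 ± 0.37, adjusted p = 0.0297). Its lowest OAP2 library was again OAP2 3, and PBS 2, at 0.69, was the lowest of all 12. For Col11a2 the value was 1.59 ± 0.18 without PBS 2 and OAP2 3, and its call ended without OAP2 1, OAP2 2 or any of the Oxa libraries in turn, with limma and with no filter on low values. Itga2 was not called without Oxa 1 (adjusted p = 0.0527).

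Without PBS 2 and OAP2 3, 17 members were called between OAP2 and Oxa, 9 higher and 8 lower in OAP2, where 28.5% of all genes were, 14% higher and 14.5% lower. Among the higher ones were Col4a1 (0.32 ± 0.09), Col4a2 (0.47 ± 0.10), Col18a1 (0.46 ± 0.09), Lama5 (0.31 ± 0.09), Lamc1 (0.33 ± 0.08), Itga5 (0.51 ± 0.09) and Itga6 (0.26 ± 0.08), none of them called over all 12 libraries. The calls higher in OAP2 are again partly set by leaving out OAP2 3. Without PBS 2 alone 11 were called, 2 higher and 9 lower, where 22.8% of all genes were (10.1% higher, 12.7% lower). Without OAP2 3 alone 9 were called, 4 higher and 5 lower, where 12.5% were (6.68% higher, 5.79% lower).

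OAP2 against APAP gave 1 called member, where 0.474% of all genes were called, 0.274% higher and 0.199% lower. An unadjusted p below 0.05 was reached by 3 members and by 15.2% of all genes. Col8a1 was lower in OAP2 (-0.59 ± 0.11, 95% interval -0.82 to -0.37, edgeR adjusted p = 0.0286), with all OAP2 values below all APAP values. The call ended without each APAP and each Oxa library in turn and without OAP2 1 or OAP2 2, and with no filter on low values, with adjusted p up to 0.144. Itgb7 was next, not called in edgeR over all libraries (-1.08 ± 0.29, adjusted p = 0.116), but called by DESeq2, with the 6 libraries alone in edgeR, and without PBS 2 (edgeR adjusted p = 0.000234). DESeq2 called 3 members, Col8a1, Itga2 and Itgb7, and 4.47% of all genes. Groups did not overlap for 3 members, all lower in OAP2, against 25.7% of all genes. Without PBS 2 and OAP2 3, 8 were called, 5 higher and 3 lower, where 11.9% of all genes were (6.72% higher, 5.23% lower). Itgb7 (-1.03 ± 0.10) and Itga2 (-0.44 ± 0.11) fell with Col8a1 (-0.56 ± 0.10), and Lamb3 (0.64 ± 0.10), Col4a5 (0.65 ± 0.11), Lamb2 (0.61 ± 0.13), Col18a1 (0.31 ± 0.09) and Col16a1 (0.35 ± 0.10) rose. Here too the calls higher in OAP2 are partly set by leaving out OAP2 3. Without PBS 2 alone 3 were called, all lower, where 7.61% of all genes were (4.13% higher, 3.48% lower). Without OAP2 3 alone 1 was, lower, where 1.04% were (0.69% higher, 0.349% lower).

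The same ratio was taken for chains of other complexes. Lamb3 to Lama3, partners in the hemidesmosome laminin, was 3.09, 3.13 and 2.76 in PBS, 4.47, 3.45 and 4.25 in APAP, 4.51, 4.19 and 3.90 in Oxa and 6.48, 5.76 and 4.10 in OAP2. The PBS values were below all others, and the other 3 groups overlapped. Lamb1 to Lama5, chains of the common epithelial laminin, ran from 1.06 to 1.25 in PBS, from 1.21 to 1.31 in APAP, from 1.28 to 1.49 in OAP2 and from 1.54 to 1.63 in Oxa. The Oxa values lay above all others, and the highest of the OAP2 values was that of OAP2 3. Itgb4 to Itga6 was 1.19 ± 0.0764 in PBS, 1.35 ± 0.150 in APAP, 1.76 ± 0.182 in Oxa and 1.35 ± 0.208 in OAP2. Its Oxa values, from 1.55 to 1.91, lay above all others, and the other 3 groups overlapped. Lamc1 to Lama5 had group means of 0.544 in PBS, 0.524 in APAP, 0.604 in Oxa and 0.602 in OAP2, and Itga3 to Itgb1 of 0.843, 1.01, 0.894 and 0.793, with APAP apart from Oxa and OAP2 in the first, APAP apart from OAP2 in the second, and the other pairs of groups overlapping. These ratios were chosen with the levels in view and were not tested.

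**Figure D5:**
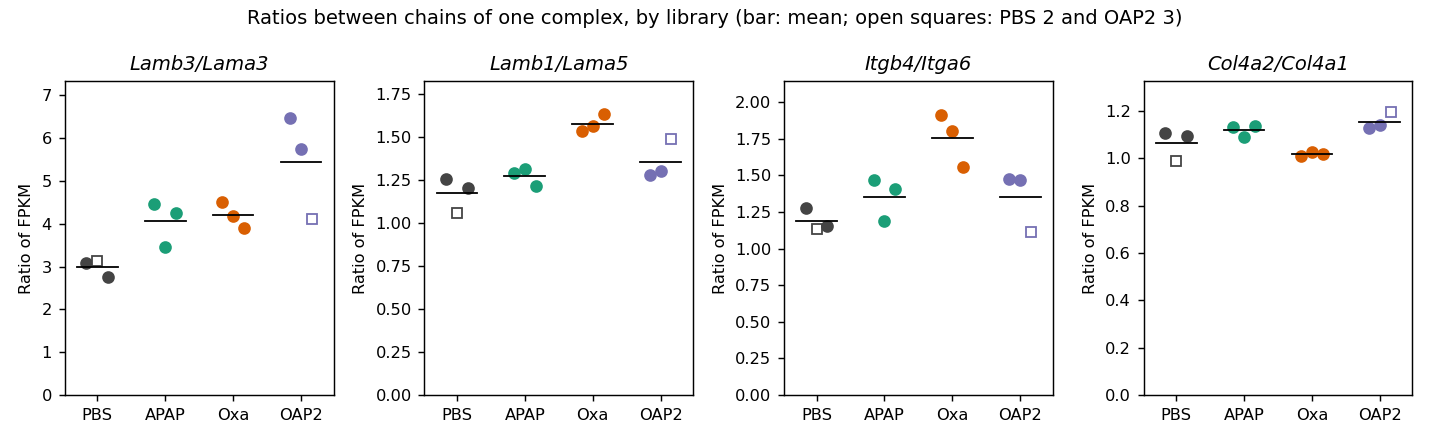
Ratio of FPKM between chains of the same complex (y axis, from 0) by library in the 4 groups (x axis); bars are means and open squares are PBS 2 and OAP2 3. Lamb3/Lama3 lies between 2.76 and 3.13 in PBS and at 3.45 or above elsewhere, while Col4a2/Col4a1 stays between 0.989 and 1.20.

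Around these genes, 63 of 81 listed partners in the table were tested: matrix proteins, enzymes that make collagen, other matrix receptors, and the plaque that links integrins to actin or keratin. In OAP2 against PBS 1 was higher (the adhesion protein Zyx, 0.55 ± 0.14), 7 were lower and 55 did not pass, against 5.25% of all genes. Of 7 matrix proteins 3 fell, fibronectin (Fn1) among them, from FPKM 334.52, 301.05 and 371.38 to 217.56, 214.21 and 152.01 (-0.77 ± 0.13, edgeR adjusted p = 0.00607). OAP2 3 was the lowest library for Fn1, and its log2 fold change without PBS 2 and OAP2 3 was -0.694. Of 26 plaque genes 4 fell and 1 rose, with the tensin Tns3 (-0.51 ± 0.09), the focal adhesion scaffold Bcar1 (-0.48 ± 0.10) and the kinase Src (-0.56 ± 0.12) leading. With the 6 libraries of this comparison alone 0 partners were called in edgeR, where 18 had an unadjusted p below 0.05. The share of all genes in that fit is not given here, so these counts do not set the partners apart from all genes. None of the 19 collagen-making genes and none of the 11 other receptors passed in edgeR.

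In Oxa against PBS 6 partners rose and 1 fell, against 10.1% of all genes. The largest statistics were those of Kank2, a talin-binding protein (1.07 ± 0.18), the kindlin Fermt2, an activator of integrins (0.41 ± 0.09), P4ha2, which hydroxylates collagen prolines (0.89 ± 0.20), and the tetraspanin Cd81 (0.54 ± 0.13). P4ha2 reached FPKM 1 in the Oxa libraries alone and so entered the test through the group in which it is high. The calls of Fermt2, P4ha2 and Cd81 each ended without PBS 1 or Oxa 1. In OAP2 against Oxa 2 rose and 10 fell, against 12.9%, with Bcar1 (-0.67 ± 0.10), Src (-0.77 ± 0.12), Tns3 (-0.58 ± 0.09) and Fermt2 (-0.52 ± 0.09) leading and called in all 21 alternatives. No partner passed in APAP against PBS or OAP2 against APAP in edgeR, where DESeq2 called 1 and 5 (0.856% and 4.47% of all genes). Without PBS 2 and OAP2 3 the partner counts were 26 for OAP2 against PBS (23.6% of all genes), 27 for Oxa against PBS (35.4%), 2 for APAP against PBS (0.598%), 23 for OAP2 against Oxa (28.5%) and 17 for OAP2 against APAP (11.9%). From the 8 partners called over all libraries in OAP2 against PBS, leaving out OAP2 1 or OAP2 2 alone gave 4 or 5, and from the 7 in Oxa against PBS, leaving out Oxa 1 alone gave 1. The shares of all genes in these fits are not given here, so the falls cannot be read as particular to the partners.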

How the data were processed

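Poly(A) RNA of 12 libraries of 4T1 cells was sequenced in pairs from dUTP-marked libraries, per the labels' protocols. The authors deposited 1 table with FPKM and a count per gene and library; per the submitters' processing notes the tools were StringTie 2.1.6, HISAT2 2.2.1 and cutadapt 1.9 beside edgeR and DESeq2, with roles not given. The deposited FPKM values, already normalised by the authors, served as levels. The deposited counts are whole numbers that look like estimated counts (expected counts) from transcript coverage, not scaled between libraries; reads shared between near-identical genes and the strand used in counting are not stated. The notes name mm9, but 70 of 81 members and 87.9% of 29864 matched genes have their GRCm38 positions in GENCODE M21, so positions are read as GRCm38. Columns named CON were taken as PBS by inference. Col20a1 shares its strand and 741 bases with another transcript, and Col18a1 overlaps Slc19a1 on the other strand, so their counts are less certain.

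The 12036 genes reaching FPKM 1 in 3 or more libraries were fitted in edgeR 4.0.16 (R 4.3.3) with TMM scaling, 1 mean per group over 12 libraries and quasi-likelihood tests, 2-sided, with Benjamini-Hochberg adjustment over all genes tested and calls below 0.05. SE was approximated from the log2 fold change and the F statistic, and 95% intervals follow from it. Library departures are on log2 CPM (prior count 2). The script was tested on simulated data. The labels do not say that replicates were separate cultures, so the p-values cover only library-to-library spread, which may be technical. Alternatives were other filters and size factors, DESeq2 1.42.0, limma 3.58.1 on log2(FPKM + 1) and log2(FPKM + 0.1), 2 groups only, a replicate block, a threshold of 0.01, and each library left out. Leaving out PBS 2 and OAP2 3 together was chosen after seeing the data. Taking out libraries that depart from their group lowers the spread, so p-values of those fits can be too small in both directions. OAP2 3 was picked for the low values of the tested members, which favours calls of members higher in OAP2.

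Members named are those called in any comparison, the 5 highest of each family, the 2 smallest p-values where fewer than 2 were called, and those at the edge of the level rule, and of the partners up to 4 called with the largest F; other members named, including those called without PBS 2 and OAP2 3, were picked after their values were seen. One tested member is counted but not reported here by name. Members and lists were chosen with earlier results of these data known.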

Additional observations from a re-analysis of the deposited data

How the results depend on the processing

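Of 13 calls of single members, 5 held under all 21 alternatives (Col8a1 in OAP2 against PBS, Col7a1 in Oxa against PBS, and Col8a1, Col7a1 and Lama3 in OAP2 against Oxa), 8 were lost under at least 1, and 0 changed sign. For OAP2 against PBS, the count of 4 became 2 with no filter on low values, 1 with the 6 libraries compared, 2 at a threshold of 0.01, 6 with DESeq2, 13 without PBS 2 and OAP2 3, and 2 to 7 with 1 library left out. For Oxa against PBS, 2 became 1 with no filter, with filterByExpr, with limma on log2(FPKM + 1) or log2(FPKM + 0.1) and at 0.01, 5 with DESeq2, 14 without both libraries, and 1 to 7 with 1 left out. For APAP against PBS, 0 in edgeR became 3 with DESeq2 and 2 without both, and stayed 0 with 1 left out. For OAP2 against Oxa, 6 became 3 at 0.01, 8 with DESeq2, 17 without both, and 3 to 11 with 1 left out. For OAP2 against APAP, 1 became 0 with no filter and at 0.01, 3 with DESeq2, 2 with the 6 libraries, 8 without both, and 0 to 3 with 1 left out. The share of all genes called moved between settings too, from 5.25% over all 12 libraries to 23.6% without both in OAP2 against PBS. It is not given here for every setting. So these counts, and those with a replicate block below, do not show shifts particular to the members. The cause of these shifts was not tested.

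Of 19 uncalled fold changes followed through all alternatives, those of called members, 3 changed sign: Col16a1 in OAP2 against PBS (-0.385 to 0.094 with 1 library left out, 0.1083 without both), Itgb7 in APAP against PBS (-0.518 to 0.1027, positive without PBS 1 or PBS 3) and Lamb3 in APAP against PBS (-0.337 to 0.0427, the positive value without PBS 2, and 0.0426 without both). Uncalled members outside these changed sign too when a library was left out, Itgb1 and Itgb2 in OAP2 against PBS among them. With the replicate number as a block, the counts were 4, 2, 0, 7 and 1 in the order above, and the added gene was Itgb2 in OAP2 against Oxa. Same-numbered libraries did not deviate together (18 correlations from -0.152 to 0.155), so the numbers were not taken as pairs. With 3 libraries a group, PBS 2 and OAP2 3 set much of the spread, and genes below FPKM 1 were not tested.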
